A study of Danio rerio with 6 samples.

Results

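The genes described here are 60 zebrafish genes of the extracellular matrix: collagens, laminins and other basement membrane proteins, notochord sheath proteins, hyaluronan and proteoglycan genes, matricellular proteins, and the enzymes that cut or cross-link matrix. They were chosen by gene symbol, with earlier results of these data known, and the fibronectins were left out of the list. Of the 60 genes, 31 had a probe set of their own on the array, with 45 probe sets among the 15502 that were not controls. After the dimmest 25% of the array was left out, 36 of these 45 probe sets remained for testing, and they stood for 27 genes of the 7356 tested.

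RNA came from whole embryos at 19 hours post fertilization, grown at 28.5 degrees Celsius, with 10 to 25 embryos pooled for each of 6 Affymetrix arrays. Mutants (3 arrays) carried the hanS6 allele of hand2, which encodes a transcription factor needed for heart and fin development, and were compared with wild-type siblings (3 arrays). Both groups came from 3 crosses of heterozygous parents and were sorted by Tg(myl7:egfp), a reporter of heart muscle. Because the sort was on phenotype, the sibling group can hold heterozygotes as well as embryos with no mutant allele.

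The extracellular matrix is the protein and sugar network around cells. Laminins, type IV collagen, nidogen and perlecan build the basement membrane, a thin sheet under epithelia, and the Fras and Frem proteins fix the epidermis to it. Fibrillar collagens give connective tissue its strength, the sheath of collagens around the notochord stiffens the axis of the embryo, and hyaluronan with its link proteins fills the cardiac jelly and other soft spaces. Matrix metalloproteinases cut these proteins and TIMPs inhibit the metalloproteinases.

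No matrix gene passed the threshold between mutants and siblings (limma, Benjamini-Hochberg adjusted p under 0.05 over 11626 probe sets). Of all tested probe sets, 0.0086% passed, which was that of hand2 alone. Adjusted p-values of the 36 matrix probe sets lay between 0.942 and 0.997. Fitted differences ran from -0.24 to 0.81 on the scale of log2(signal + 16), mutant minus sibling, with standard errors of 0.13 to 0.54 and a median standard error of 0.20. The signal was higher in the mutant for 20 of the 36 probe sets and lower for 16.

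Under an unadjusted p of 0.05 lay 1 of the 36 matrix probe sets (2.78%), against 3.03% of all tested probe sets. The replicate number was also fitted as a block, since arrays of the same number may be paired. Deviations from the genotype means correlated at 0.193, 0.119 and 0.482 within numbers 1, 2 and 3. Between wild-type replicate 1 and mutant replicate 2 the correlation was 0.203. With the block, 3 matrix probe sets lay under that p (8.33%), against 7.41% of all. Those 3 were 1 probe set of frem3 and 2 of hapln1a. The names of these 2 hapln1a probe sets differ only in their ending, so they may not be separate readings. The mutant and sibling arrays did not overlap for 1 matrix probe set, of frem3, where 6.75% of all tested probe sets did not overlap. These matrix shares were near or below those over the whole array.

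At every replicate number the mutant was higher for 7 matrix probe sets (19.4%), against 16.2% of all tested probe sets. These were probe sets of col11a1a, frem3, hapln1a, has2 and mmp14b. It was lower at every number for 2 matrix probe sets (5.56%), those of col18a1a and lama5, against 14.7% of all. The median over the 27 matrix genes was 0.04, with 15 higher and 12 lower, beside a median of 0.001 over all tested genes. At replicate numbers 1, 2 and 3 the matrix median was 0.15, 0.12 and -0.14, and that of all genes -0.02, -0.01 and 0.01. Of the 45 matrix probe sets 28 lay on all 6 arrays above the Tag controls, probe sets not meant to match a zebrafish transcript that served as the measure of background. Another 9 lay at or below these controls in both genotypes.

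**Figure D1:**
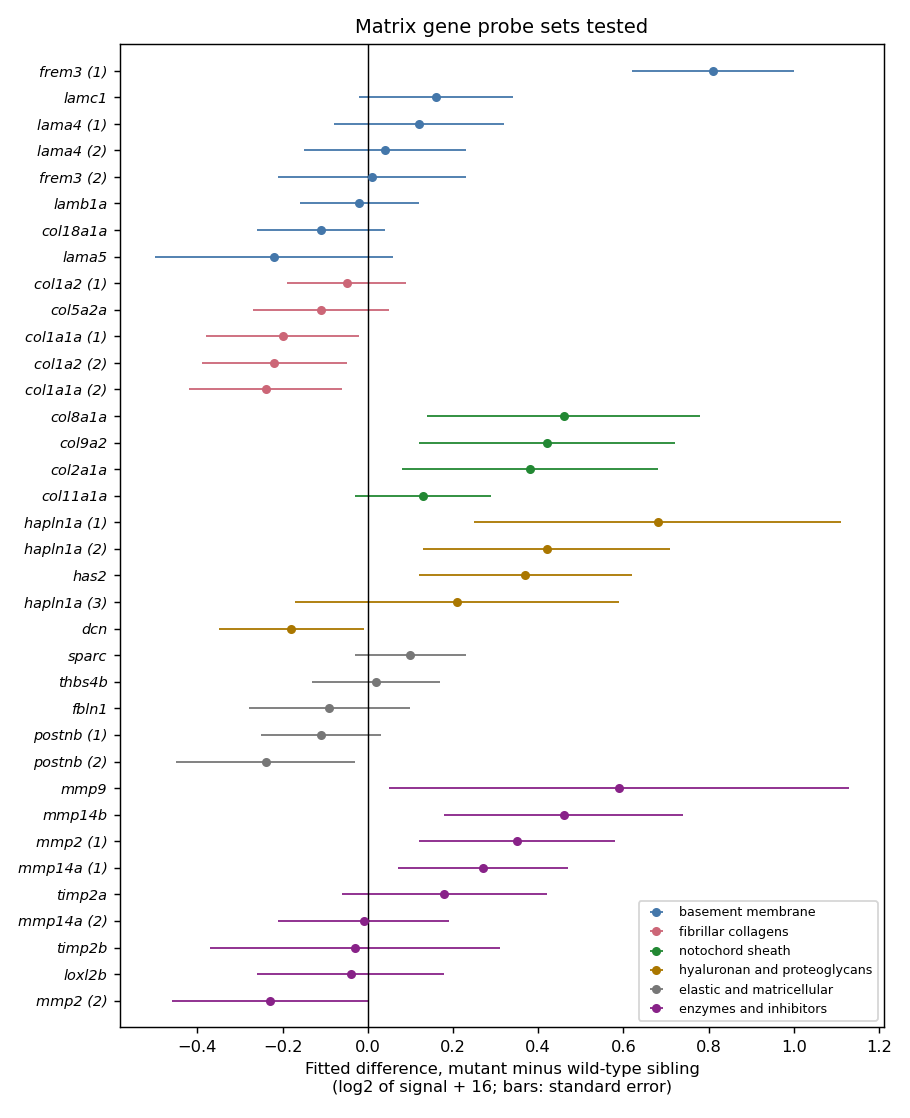
Fitted difference of each tested matrix probe set, mutant minus sibling, in log2(signal + 16), with bars of 1 standard error, grouped by role. Numbers in brackets tell apart probe sets of 1 gene; the difference of frem3 (0.81) stands highest, and no probe set passed the adjusted threshold.

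The mutated gene was checked first. Signal of hand2 was 349, 448 and 292 in sibling replicates 1, 2 and 3, and 52.8, 50.9 and 45.1 in the mutants, a difference of -2.51 ± 0.21 (standard error; limma, adjusted p = 0.00509). No mutant value of hand2 exceeded the brightest Tag control on its array, so hand2 was at least 4.35-fold lower. With wild-type replicate 1 left out hand2 missed the threshold (adjusted p = 0.0604), as it did with wild-type replicate 2 left out (adjusted p = 0.0536). Median signal was 152.0 to 177.1 on the 6 arrays, and pairs of arrays correlated at 0.949 to 0.973 in log2 signal. Brightness at the 99th percentile was lowest in mutant replicate 2, at 9493, against 10462 to 12859 on the other arrays. The labels do not tie the 3 arrays of a genotype to separate crosses by name, so p-values measure the spread between these arrays.

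Basement membrane genes were covered only in part: 7 of the 21 listed had a probe set, and 6 were tested. Among the 14 with none of their own were lama1, lamb1b, the type IV collagens col4a1, col4a2, col4a5 and col4a6, the perlecan gene hspg2, the agrin gene agrn and fras1. The 6 tested genes had a median difference of 0.011, with 3 higher and 3 lower, so the group as a whole sat at the median of the array.

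The gene frem3 encodes a large protein of the Fras and Frem family, which anchors embryonic epidermis to its basement membrane in mouse. On the brighter of its 2 probe sets the siblings read 77.1, 79.6 and 72.4, and the mutants 170.5, 145 and 124. Every mutant array lay above every sibling array, and the siblings spanned only 1.1-fold from lowest to highest. The sibling mean was 76.4 ± 3.6 and the mutant mean 146 ± 23.4 (SD over 3 arrays each).

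That difference in frem3 was 0.81 ± 0.19, with differences of 1.0, 0.75 and 0.66 at replicate numbers 1, 2 and 3 (limma, unadjusted p = 0.0021, adjusted p = 0.942). The second frem3 probe set read 48.5, 67.1 and 85.1 in siblings and 75.9, 62.8 and 60.5 in mutants, and its genotypes overlapped. Its difference was 0.01 ± 0.22, so a difference was seen on 1 of the 2 probe sets of frem3. On the first, 5 of 6 arrays lay above the Tag controls, and on the second 2 of 6. In the RefSeq gene table of assembly GRCz12tu frem3 lies on the chromosome of hand2, with 27 protein-coding genes between them, and whether that position bears on its signal was not tested.

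Laminins are trimers of an alpha, a beta and a gamma chain. The beta chain gene lamb1a read 1841, 1824 and 1754 in siblings and 1755, 2038 and 1585 in mutants. The gamma chain gene lamc1 read 338, 404 and 323 in siblings and 469, 365 and 365 in mutants. For both genes the genotypes overlapped: the difference was -0.02 ± 0.14 for lamb1a and 0.16 ± 0.18 for lamc1, of which mutant replicate 1 carried the largest part.

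Of the alpha chains, lama5, the main chain of epithelial basement membranes, read 346, 438 and 684 in siblings and 330.2, 338 and 572 in mutants. Replicate 3 was the highest array in both genotypes, and each mutant array lay below the sibling of its number, by -0.06, -0.36 and -0.25. The fitted difference was -0.22 ± 0.28, or -0.22 ± 0.14 with the replicate block (limma, unadjusted p = 0.16). The chain found in vessel walls and muscle, lama4, read 111, 140.5 and 116 in siblings and 125, 121 and 132 in mutants, a difference of 0.04 ± 0.19. A second lama4 probe set was at or below the Tag controls on all 6 arrays (0.12 ± 0.20).

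The gene of highest signal in the basement membrane group was col18a1a, the collagen whose end fragment is endostatin. It read 3516, 4043 and 4428 in siblings and 3134, 3784 and 4182 in mutants. The replicate numbers ranked alike in both genotypes, and each mutant array lay below its numbered sibling, by -0.17, -0.09 and -0.08. The fitted difference of -0.11 ± 0.15 was smaller than its error, and without mutant replicate 1 it was 0.00011. The nidogen gene nid1a, whose product links laminin to type IV collagen, read 3.9 to 5.6 in siblings and 6.0 to 8.8 in mutants, all below the Tag controls, and was not tested.

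The laminin receptor subunit itga6b, an integrin alpha chain of hemidesmosomes, was not tested because its mean signal fell under the filter. Its siblings read 35.0, 33.4 and 27.6 and its mutants 45.0, 64.2 and 53.0. The genotypes did not overlap, but every array lay at or below its Tag controls, so no fold is given. The same held for nid1a and for the biglycan gene bgnb, also untested. With no filter the genotypes did not overlap for 8.89% of matrix probe sets, against 7.7% of all. Like frem3, itga6b lies on the chromosome of hand2 in the gene table, with 82 protein-coding genes between them. Its partner in hemidesmosomes, itgb4, had no probe set.

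Each measured fibrillar collagen gene had a probe set above the Tag controls on all 6 arrays, and the 3 genes tested (of 7 listed) were all lower in the mutant by the fitted value, without passing the threshold. Their median difference was -0.22, made up of medians of 0.15, -0.42 and -0.23 at replicate numbers 1, 2 and 3. Replicate number 1 thus ran against numbers 2 and 3.

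Type I collagen, the main collagen of skin and bone, is built from the chains of col1a1a, col1a1b and col1a2. The brighter col1a1a probe set read 1519, 1954 and 1939 in siblings and 1684, 1199 and 1709 in mutants. Mutant replicate 2 was the lowest of the 6 arrays and the rest overlapped. The difference was -0.24 ± 0.18, and the second col1a1a probe set gave -0.20 ± 0.18.

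The brighter probe set of col1a2 read 2124, 2036 and 2498 in siblings and 2138, 1519 and 2086 in mutants, a difference of -0.22 ± 0.17. Its second probe set read 1314, 1365 and 1314 in siblings and 1426, 1127 and 1311 in mutants, a difference of -0.05 ± 0.14. Mutant replicate 2 was again the lowest array on both. That array was also lowest in brightness at the 99th percentile, and the part of this in the collagen values was not tested. With quantile normalization the differences on the brighter probe sets were -0.24 for col1a1a and -0.19 for col1a2. Without mutant replicate 2 they were -0.08 for col1a1a and -0.07 for col1a2, less than a standard error of either.

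Type V collagen sets the width of type I fibrils, and its gene col5a2a read 900.5, 1202 and 1236 in siblings and 1068, 953 and 1052 in mutants. The genotypes overlapped, and the difference was -0.11 ± 0.16. A second col5a2a probe set lay at background in both genotypes. The signal of col1a1b was read only by a probe set it shares with dcxr and is not given, and col5a1, col6a1 and col12a1a had no probe set.

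Markers of epidermis, a tissue that makes type I collagen in the zebrafish embryo, were also lower by the fitted median. At replicate number 2 the medians of both groups were below 0, and at numbers 1 and 3 their signs differed. Of 15 tested epidermis markers 13 were lower in the mutant, with a median of -0.15 and medians of -0.40, -0.17 and 0.08 at numbers 1, 2 and 3. Their summed signal was 91389 to 112164 in siblings and 75469, 72113 and 102341 in mutants. Their part in the collagen values was not tested, and in pooled whole embryos fewer cells of a type and less RNA per cell cannot be told apart.

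Values of the notochord sheath genes differed by array. Of the 7 listed genes 4 were tested, all 4 higher in the mutant by the fitted value with a median of 0.40, and none passed the threshold. At replicate numbers 1 and 2 the medians were 0.74 and 0.66, and at number 3 the median was -0.20. The medians of the same genes at the 3 numbers thus lay on both sides of 0.

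The gene col2a1a encodes type II collagen, the main fibril of the notochord sheath and of cartilage. It read 1938, 2135 and 1637 in siblings and 3251, 3313 and 1381 in mutants (means 1903 ± 251 and 2648 ± 1098, SD over 3 arrays each). Mutant replicates 1 and 2 were the highest of the 6 arrays and mutant replicate 3 was the lowest. The difference was 0.38 ± 0.30, with 0.74, 0.63 and -0.24 at the 3 numbers (limma, unadjusted p = 0.24, adjusted p = 0.942).

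Type IX collagen coats type II fibrils. Its gene col9a2 read 1044, 1274 and 929 in siblings and 1741, 2089 and 826 in mutants. The array order was that of col2a1a, with mutant replicate 3 the lowest of all. The difference was 0.42 ± 0.30, with 0.73, 0.71 and -0.17 at the 3 numbers.

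The gene col8a1a encodes a short-chain collagen that zebrafish need for a straight notochord. It read 141, 109 and 138 in siblings and 302, 187 and 106 in mutants. Once more mutant replicates 1 and 2 were the highest arrays and mutant replicate 3 the lowest, and the difference was 0.46 ± 0.32. Type XI collagen, the core of type II fibrils, moved less: col11a1a read 1890.1, 2015 and 1636 in siblings and 2236, 2191 and 1666 in mutants. Its difference was 0.13 ± 0.16, and each mutant array lay above the sibling of its number, by 0.24, 0.12 and 0.03.

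These values turned on single mutant arrays. Without mutant replicate 1 the difference was 0.18 for col2a1a, 0.29 for col9a2 and 0.12 for col8a1a, and the sheath median was 0.15. Without mutant replicate 2 the differences were 0.16, 0.16 and 0.44 in the same order, and the median was 0.16. Without mutant replicate 3 the difference was 0.79 for col2a1a (limma, adjusted p = 0.137), 0.82 for col9a2 (adjusted p = 0.187) and 0.81 for col8a1a (adjusted p = 0.388), so none of the 3 passed. In that fit 8 of the 36 matrix probe sets lay under an unadjusted p of 0.05 (22.2%), against 11.0% of all tested probe sets. They were probe sets of col2a1a, col8a1a, col9a2, frem3, hapln1a, mmp14b and postnb. The postnb probe set was lower in the mutant (-0.45) and the rest were higher. Of the 20 probe sets of the whole array that passed the adjusted threshold there, none was of a matrix gene on the list.

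Other type IX collagen genes, which were not on the list, were also higher in the mutant at numbers 1 and 2. The gene col9a3 read 582, 515 and 378 in siblings and 1038, 880.3 and 473 in mutants, a difference of 0.63 ± 0.28, with 0.82, 0.75 and 0.31 at the 3 numbers. For col9a1b siblings read 1464, 1245 and 1094 and mutants 2030.2, 2322 and 1097, a difference of 0.45 ± 0.26. In both genes the gap was smallest at number 3, but there the mutant array did not lie below its sibling, unlike in col9a2.

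By their medians, notochord markers moved with the sheath genes. Of 10 tested markers 8 were higher in the mutant and the median was 0.27, with medians of 0.45, 0.51 and -0.05 at the 3 numbers. Their summed signal was 7431 to 7947 in siblings and 8962, 9970.1 and 7127 in mutants. The gene cmn, for the notochord matrix protein calymmin, read 205, 179 and 191 in siblings and 399, 414 and 182 in mutants. The 2 lower markers were the early notochord transcription factor noto (-0.14 ± 0.20) and cav1 (-0.16 ± 0.16). On its brightest probe set cav1 was lower in the mutant at every number, by -0.37, -0.08 and -0.03.

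**Figure D2:**
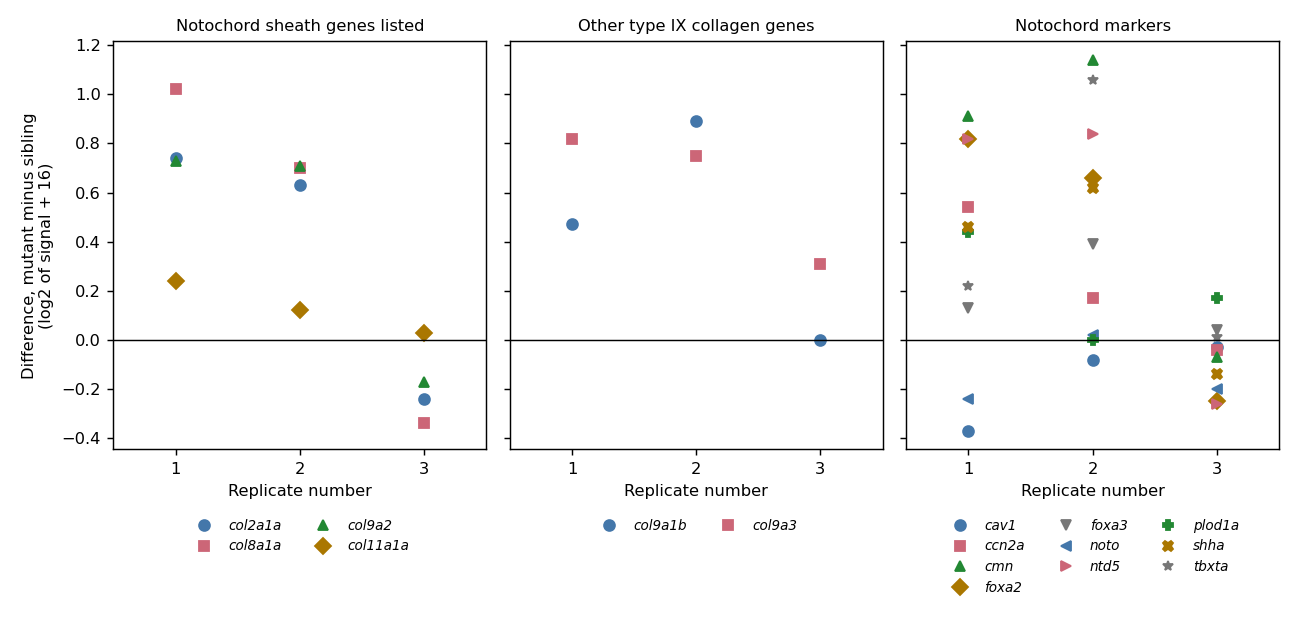
Difference between the mutant and sibling arrays of each replicate number, in log2(signal + 16), for the listed sheath genes, the other type IX collagens and the notochord markers; each point is 1 gene. Points of col2a1a, col8a1a and col9a2 lie above 0.6 at numbers 1 and 2 and below 0 at number 3, and most markers sit near or below 0 at number 3.

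Somitic muscle markers followed the same pattern over the arrays, with 16 of 18 higher in the mutant, a median of 0.47, and medians of 0.80, 0.62 and -0.03 at the 3 numbers. Neural crest and mesenchyme markers had a median of 0.19 (11 of 13 higher) and endothelial markers one of 0.64 (all 7 tested higher). Heart muscle markers had a median of -1.04, with all 4 tested lower. The embryos were sorted by a myl7 reporter and myl7 is among these 4, so that median is not independent of the sort. The part of the makeup of the embryos in the sheath collagen values was not tested.

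Hyaluronan and proteoglycan genes were read with 10 probe sets for 5 of 9 listed genes, of which 3 genes were tested. Their median difference was 0.37, with medians of 0.51, 0.01 and 0.18 at the 3 numbers. That fitted median is the value of has2, whose siblings were at background. It was 0.12 when the dimmest 50%, has2 among them, were dropped, 0.21 with an offset of 64 and 0.19 without wild-type replicate 3. Other settings raised it, to 0.52 without wild-type replicate 2, 0.48 without mutant replicate 3 and 0.42 with an offset of 1. The link protein gene hapln1a, whose product ties proteoglycans to hyaluronan and which is active in the cardiac jelly, carried 6 of the probe sets.

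On the brightest tested hapln1a probe set the siblings read 1088, 1058 and 671 and the mutants 1561, 1559 and 763. On another, whose name differs only in its ending, they read 510.1, 468 and 170.0, against 883, 621 and 327 in mutants. Replicate 3 was the dimmest array of each genotype on both, so the genotypes overlapped while each mutant lay above its numbered sibling. The gaps were 0.51, 0.55 and 0.18 on the first probe set and 0.77, 0.40 and 0.88 on the second.

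Without a block the hapln1a differences were 0.42 ± 0.29 and 0.68 ± 0.43 (limma, unadjusted p = 0.18 and 0.15). With the replicate block the standard errors fell to 0.13 and 0.16 and the unadjusted p to 0.012 and 0.0021, with adjusted p = 0.646 and 0.634. The third tested hapln1a probe set read 1122, 732 and 484 in siblings and 1448, 850.4 and 500.1 in mutants, a difference of 0.21 ± 0.38 that was also higher at every number. With the block that difference was 0.21 ± 0.13 (limma, unadjusted p = 0.15). The remaining 3 hapln1a probe sets were too dim to be tested.

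The hyaluronan synthase gene has2, needed for cardiac jelly and for endocardial cushions in vertebrates, was dim. It read 39.1, 66.6 and 30.2 in siblings, all at or below the Tag controls, and 66.7, 67.4 and 49.8 in mutants, of which 1 was above them. The difference was 0.37 ± 0.25 and no fold is given. The small proteoglycan gene dcn, whose product decorin binds collagen fibrils, read 946, 1030.0 and 1022 in siblings and 743, 824 and 1108 in mutants, and the genotypes overlapped (-0.18 ± 0.17). The versican gene vcanb and the biglycan gene bgnb were at background in both genotypes, the latter at 0.7 to 6.7 on the 6 arrays.

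**Figure D3:**
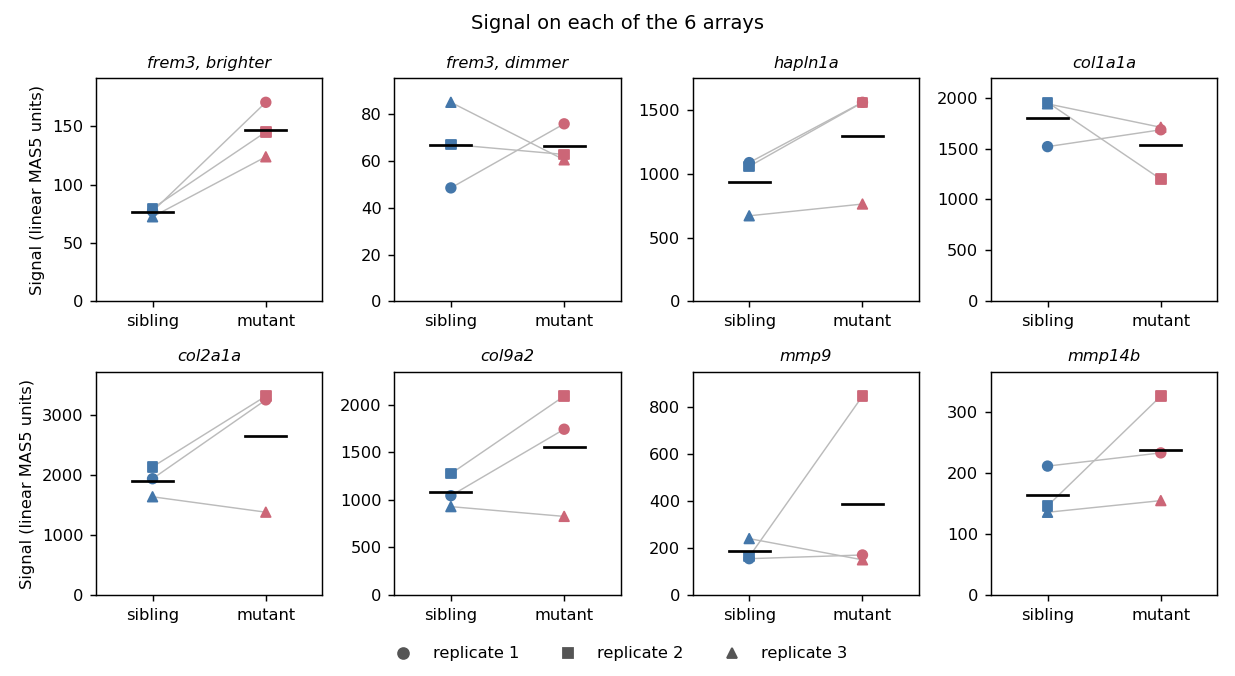
Signal on each of the 6 arrays for 7 matrix genes (8 probe sets), siblings beside mutants, with grey lines joining the arrays of a replicate number, bars at the means and vertical axes starting at 0. The mutant arrays of the brighter frem3 probe set lie apart from the siblings, those of col2a1a and col9a2 are split by mutant replicate 3, and mmp9 is high on mutant replicate 2 alone.

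Elastic fibre and matricellular genes, whose products sit in the matrix and regulate cells or fibres, had fitted values near 0. The 4 tested genes had a median of -0.03 and ran from -0.11 to 0.10, none larger than its standard error. The osteonectin gene sparc, whose product binds collagen, read 3220.5, 2609 and 3030.4 in siblings and 3075, 3096 and 3296 in mutants, a difference of 0.10 ± 0.13. The genotypes overlapped.

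The periostin gene postnb, active at the borders of somites in fish, read 3189, 3438 and 3382 in siblings and 2943, 2797 and 3555 in mutants. Mutant replicates 1 and 2 were the lowest arrays and mutant replicate 3 the highest, the reverse of the order in col2a1a. The differences were -0.11 ± 0.14 on this probe set and -0.24 ± 0.21 on a second. The thrombospondin gene thbs4b, of muscle and tendon attachments, gave 0.02 ± 0.15, and the fibulin gene fbln1 gave -0.09 ± 0.19.

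The listed symbol tnc, for the glycoprotein tenascin C, matched no probe set under its present name, and the gene table gives it as an older symbol of tncb. Outside the counts above, the tested tncb probe set read 85.8, 71.2 and 78.6 in siblings and 162, 52.0 and 72.7 in mutants. Only mutant replicate 1 was high, and the difference was 0.12 ± 0.32.

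Enzymes and inhibitors were the only role in which every listed gene, 7 of 7, was tested. Their median was 0.18, with medians of 0.13, 0.85 and -0.15 at replicate numbers 1, 2 and 3. It was -0.02 without mutant replicate 2 and -0.15 without replicate 2 of both genotypes, and 0.05 without wild-type replicate 2. The gap was widest upward at number 2 in mmp9, mmp14b, timp2a and timp2b.

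The gelatinase gene mmp9, made by leukocytes and at sites of inflammation, read 155, 163 and 240.0 in siblings and 170.5, 845 and 149.9 in mutants. Mutant replicate 2 stood far above every other array and the rest overlapped. The difference was 0.59 ± 0.54 and -0.18 without that array. On the same array the interferon-induced gene isg15 read 2693 against 37.1 to 61.3 elsewhere, and the secreted matrix gene spon2b read 641 against 36.6 to 63.3. Their part in the mmp9 value was not tested.

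Membrane-type metalloproteinases cut collagen at the cell surface and activate the gelatinase of mmp2. The gene mmp14b read 211, 146 and 136 in siblings and 233, 326 and 155 in mutants, with mutant replicate 2 again the highest. Its difference was 0.46 ± 0.28 and 0.22 without that array. The brighter mmp14a probe set read 107, 120.5 and 139 in siblings and 159.7, 170.3 and 124 in mutants, a difference of 0.27 ± 0.20. A second mmp14a probe set gave -0.01 ± 0.20.

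The gelatinase gene mmp2 was read by 2 probe sets that disagreed. The brighter read 531, 415 and 559.9 in siblings and 415, 311 and 577 in mutants, a difference of -0.23 ± 0.23. The other read 544, 305 and 324 against 415, 542 and 505, a difference of 0.35 ± 0.23. Of 8 genes with more than 1 tested probe set, 2 had differences of opposite sign, mmp2 and mmp14a.

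Differences of the inhibitor and cross-linker genes were smaller than their standard errors. The gene timp2a, an inhibitor that also helps to activate the mmp2 product, read 224, 168 and 232 in siblings and 179, 316 and 231 in mutants (0.18 ± 0.24). Its paralogue timp2b read 109, 36.2 and 96.3 in siblings and 72.3, 98.8 and 52.5 in mutants (-0.03 ± 0.34) and had the widest sibling range of the tested matrix probe sets, 3.01-fold. The lysyl oxidase gene loxl2b, whose product cross-links collagen, read 149.5, 209 and 218 in siblings and 230.4, 174 and 154 in mutants (-0.04 ± 0.22).

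**Figure D4:**
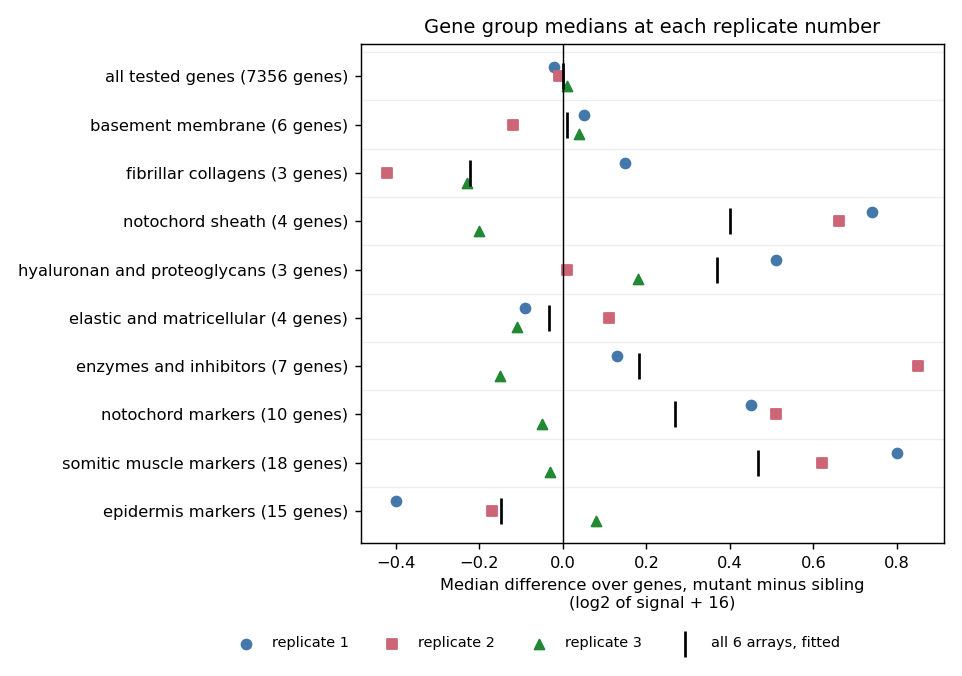
Median difference over the genes of each role and of 3 marker lists, mutant minus sibling, in log2(signal + 16), at each replicate number (points) and fitted over all 6 arrays (bars). The sheath median is 0.74 and 0.66 at numbers 1 and 2 and -0.20 at number 3, while the median of all 7356 genes stays within 0.02 of 0.

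Set side by side, the fitted medians were 0.01 for basement membrane, -0.22 for fibrillar collagens, 0.40 for the sheath, 0.37 for hyaluronan and proteoglycans, -0.03 for elastic and matricellular genes and 0.18 for enzymes. These are descriptions of 3 to 7 genes each. The spread of the medians over the 3 numbers was 0.09 for basement membrane, 0.29 for fibrillar collagens, 0.52 for the sheath and 0.52 for enzymes (SD). It was 0.26 for hyaluronan and proteoglycans and 0.12 for elastic and matricellular genes. The spread exceeded the size of the fitted median in every role but hyaluronan and proteoglycans. That role's median is the value of has2, whose siblings were at background. With the dimmest 50% left out, has2 among them, the median was 0.12. The spread of 0.26 was taken with has2 and is not that of the genes that remained.

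Other matrix genes, taken from lists wider than the 60 genes, gave no call in either direction. Of 8 tested other collagens 6 were higher, with a median of 0.32. Of 12 tested glycoproteins 8 were higher, with a median of 0.22, among them the matrix gene tgfbi (0.54 ± 0.29) and the spondin gene spon1b (0.65 ± 0.42). Of 8 tested matrix receptors and adaptors 6 were higher, with a median of 0.13, among them the paxillin gene pxna (0.26 ± 0.14) and the dystroglycan gene dag1 (0.18 ± 0.13).

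Of 15 tested genes of collagen folding and secretion 9 were lower, with a median of -0.05. The collagen-folding isomerase gene ppib read 7621, 8676 and 8901 in siblings and 6960.1, 5687 and 7179.8 in mutants. Its difference was -0.35 ± 0.14 (limma, unadjusted p = 0.035, adjusted p = 0.942). The coat protein gene sec23a is needed to export collagen from the endoplasmic reticulum. It read 1748, 2052 and 2082 in siblings and 1703, 1706 and 1719 in mutants (-0.19 ± 0.13). For both genes the genotypes did not overlap, where 6.75% of all tested probe sets did not overlap in either direction. Of 7 other tested matrix enzymes 5 were higher, with a median of 0.05, among them the collagenase gene mmp13a (0.62 ± 0.39) and the hyaluronidase gene cemip2 (0.48 ± 0.28).

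The fibronectin genes fn1a and fn1b, kept apart from the list, encode the matrix protein on which heart precursors migrate. The brightest fn1a probe set read 328, 295 and 232 in siblings and 707, 901 and 371 in mutants. Every mutant array lay above every sibling, where 6.75% of all tested probe sets did not overlap in either direction. Its difference was 1.09 ± 0.30 (limma, adjusted p = 0.942), larger than that of any of the 36 matrix probe sets. Without mutant replicate 3 it was 1.45 and passed (adjusted p = 0.045). The remaining fn1a probe sets were at background in both genotypes and were not tested. For fn1b the difference was 0.42 ± 0.20 (limma, unadjusted p = 0.063), and its genotypes did not overlap.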

How the data were processed

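Each deposited value is the linear intensity of a probe set on an array. The submitters' processing notes name MAS5 as the tool, with its version not given in the sources used here. Each array had a trimmed mean of 500.1 in the values. The number of arrays limits the precision. Control probe sets (115 of 15617) were left out, and then the lowest 25% by mean log2 intensity (signal 46.1), which left 11626. The genotype term was fitted on log2(signal + 16) by limma 3.58.1 under R 4.3.3, with moderated variances that follow a trend in intensity and 2-sided p-values adjusted by Benjamini-Hochberg. The offset understates differences of dim genes. The fit was tested on simulated data. Of the probe sets 10795 carried 1 symbol, 135 carried several and 4572 were unnamed. Symbols of 10711 were updated through a RefSeq table of assembly GRCz12tu. Gene order was taken from the same table, and no coordinates are given.

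No detection calls were used here. A genotype was taken as at background where all 3 arrays lay at or below the brightest of 17 Tag control probe sets of the same array. Where it was at background in the dimmer genotype, the fold was taken against the higher of that control and its own signal.

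The matrix genes, role groups and lists were chosen with earlier results of these data known. Named genes were hand2, in each role the 2 of smallest p and the brightest, all probe sets of a gene with several, up to 2 per other matrix list, and the fibronectins. Named outside that rule, after their values were seen, were isg15, spon2b, tncb, cmn, noto, itga6b and the remaining measured matrix genes. A gene stood by its probe set of highest mean.

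Deviations from the genotype means correlated at 0.193, 0.119 and 0.482 between arrays of number 1, 2 and 3 over 11626 probe sets. All were above 0.1, so the numbers may pair the arrays, a reading from the data since the labels name no shared cross. Reported values come from the fit without the block. The blocked fit is given beside a count that it moves, for hapln1a and lama5, and here for some other genes. The block lowered the unadjusted p (limma) from 0.051 to 0.0028 for col9a3 and from 0.19 to 0.051 for col9a2. For frem3 it rose from 0.0021 to 0.0026, and none of these genes passed the adjusted threshold with the block. Wild-type replicate 1 correlated as highly with mutant replicate 2 (0.203). Alternatives were the block, offsets of 1 and 64, no filter or the lowest 50% left out, quantile normalization, a common median, array weights and leaving out each array or number.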

Additional observations from a re-analysis of the deposited data

How the results depend on the processing

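Limits first: 3 arrays a genotype, no detection calls, and 9 of 45 matrix probe sets too dim to be tested. No matrix probe set passed the adjusted threshold under any of the 17 alternatives run. Offsets of 1 and 64, quantile normalization, a common median and array weights left 1 matrix probe set under an unadjusted p of 0.05. That was 2.78%, against 2.8% to 4.82% of all tested probe sets. With the replicate block, taking numbers as pairs, there were 3 (8.33%, against 7.41% of all). With no filter there were 2 (4.44%, against 3.44%), and with the lowest 50% left out 0 (against 2.72%). Matrix probe sets whose genotypes did not overlap numbered 4 with no filter (8.89%, against 7.7% of all probe sets) and 0 with the lowest 50% left out (against 6.01%). A common median moved the median of all probe sets from 0.02 to -0.06. The filters change which probe sets are tested, and no other cause was tested.

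Leaving out 1 array or 1 number gave 0 to 20 probe sets past the threshold on the whole array. Under an unadjusted p of 0.05 lay 1 to 8 matrix probe sets (2.78% to 22.2%), against 1.26% to 11.0% of all. Genotypes did not overlap for 2 to 19 matrix probe sets (5.56% to 52.8%), against 12.1% to 35.0% of all. With fewer arrays non-overlap is easier to reach. The hand2 difference ran from -2.65 to -2.36, and it missed the threshold without replicate 1, 2 or 3 of both genotypes (adjusted p = 0.396, 0.193 and 0.0714) and without wild-type replicate 1 or 2. The largest counts came without mutant replicate 3 (8 under an unadjusted p of 0.05, 22.2% against 11.0% of all) and without replicate 3 (19 not overlapping, 52.8% against 34.9% of all). Without replicate 3, 6 matrix probe sets lay under that p (16.7%, against 5.26% of all). Of 27 gene results named by the rule, each on the brightest probe set of its gene, 1 turned its sign. That was col18a1a, whose difference ran from -0.21 without mutant replicate 3 to 0.00011 without mutant replicate 1. Further probe sets of a gene and matrix genes named outside the rule were not in that count, and some of them also turned their sign. The second col1a2 probe set went from -0.05 to 0.04 without mutant replicate 2. Without mutant replicate 2, mmp9 went from 0.59 to -0.18 and timp2a from 0.18 to -0.02.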
